A study of Mus musculus with 6 samples.

Results

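The ERBB receptors and the ligands of the EGF family were examined in a pair of mouse mammary tumour cell lines, J110 and SSM3. The 10 genes were chosen by name, as 4 receptors (Egfr, Erbb2, Erbb3 and Erbb4) and 6 ligands (Areg, Ereg, Hbegf, Tgfa, Btc and Nrg1), of 52636 Ensembl genes in the count table. In the mice behind J110, a cDNA transgene placed the coactivator AIB1 under a viral promoter active in mammary epithelium, the MMTV LTR, and SSM3 cells came from mammary tumours of 129SvEv mice. RNA from 3 biological replicates of each line, grown to subconfluence with no further treatment, was sequenced from the 3′ ends of its transcripts. Both media held serum, insulin and hydrocortisone, and that of SSM3 was richer in serum and also held L-glutamine, β-mercaptoethanol and holo-transferrin, under higher CO2. Each genotype was represented by a single line in its own culture conditions, so genotype, line and culture cannot be told apart.

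ERBB receptors are tyrosine kinases that signal as dimers. EGFR binds AREG, TGFA and, together with ERBB4, also EREG, HBEGF and BTC, whereas neuregulins bind ERBB3 and ERBB4. ERBB2 has no known ligand of its own and acts as a partner, and ERBB3 has little kinase activity and recruits PI3K once a partner has phosphorylated it. The ligands are made as membrane precursors that ADAM proteases release. In the mammary gland, AREG is the estrogen-induced ligand through which ducts elongate, and ERBB2 amplification defines a class of human breast cancer.

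Total counts were between 5209740 and 5416305 in J110 and between 4200785 and 4792941 in SSM3, and a count of 3 in a library corresponded to between 0.578 and 0.668 CPM, the count scaled by library size. Such limits cover counting error only. Ncoa3, which encodes AIB1, did not check the labels. It had 102 to 110 counts in J110 and 181 to 199 in SSM3, but a 3′ tag need not read a cDNA transgene. Directions between the lines are given as the labels name them. All 6 epithelial markers passed the filter on low counts, 5 higher and 1 lower in SSM3. Their summed levels were 3061 to 3196 CPM in J110 and 12816 to 14147 CPM in SSM3. Epcam had 1 to 7 counts in J110 against 2376 to 2412, and Krt19, most of the SSM3 sum, had 59 to 143 against 32985 to 38701. Krt8 and Krt18 held most of the J110 sum. Krt8 had 6182 to 6584 counts in J110 against 9668 to 12324, and Krt18, the lower marker, had 6777 to 7401 against 4223 to 5085. Of the leukocyte markers, Itgam had no count and Ptprc at most 2, and the list summed to 29.2 to 35.0 CPM in J110 and 14.7 to 16.99 CPM in SSM3, nearly all of it on Csf1r (61 to 82 counts in any library) and Cd68 (70 to 115 counts in J110 and 5 to 9 in SSM3). The endothelial list summed to 158 to 181 CPM and 0 to 0.425 CPM, nearly all of it on Cdh5 (790 to 856 counts in J110), with at most 4 counts on Pecam1 and none on Tie1. The fibroblast list summed to 1.54 to 4.38 CPM and 1336 to 1480 CPM, nearly all of it on Dcn (6643 to 6712 counts in SSM3), with 5 or 6 counts on Col1a1 in J110, 0 in SSM3, and none on Col1a2 or Lum. The basal list summed to 7.72 to 14.3 CPM and 6.16 to 14.7 CPM, on different genes. Mylk was the largest part in J110 (30 to 60 counts, 1 to 6 in SSM3) and Krt14 in SSM3 (14 to 35 counts, 5 to 9 in J110). Trp63 had 6 to 9 counts in SSM3 and 0 in J110. The erythroid list summed to at most 1.56 CPM. The part of these markers in the results was not tested. Some libraries held stray counts on genes that were high in the opposite line. Such genes had at least 200 CPM there and a median of at most 3 counts in the library's own line. The share is therefore low by that choice. Stray counts came to 0.250% of the SSM3 level over 26 genes in J110 replicate 3, to 0.363% of the J110 level over 18 genes in SSM3 replicate 2, and to between 0.0299% and 0.0839% in the remaining libraries.

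Of the 10 genes, 8 passed the filter, and 7 of these (87.5%) differed between the lines, 5 higher and 2 lower in SSM3, by edgeR's quasi-likelihood test with Benjamini-Hochberg adjustment over all 12284 genes tested. Over all genes tested 77.9% were called, 38.6% higher and 39.2% lower in SSM3, so the share of members called lay near the background. The libraries of the lines did not overlap in CPM for 6 of the 8 members, where this held for 79.6% of all genes tested. The median log2 fold change, given throughout as SSM3 against J110, was 0.74 over the 8 members and -0.014 over all genes tested. Erbb3 and Nrg1 passed the filter through 1 line only and so had to differ, and the counts over members are not read as support. The same holds for genes of the lists below that reached the filter's level in 1 line only, and for all genes that reached it in all 6 libraries the shares were 75% called, 38.2% higher and 36.8% lower. With at least 10 counts required in every library, 6 members were tested, of which 4 were higher and 1 was lower in SSM3. Egfr did not pass the filter, and Erbb4 had no count. In RNA from whole cultures, fewer cells that express a gene and less RNA per cell cannot be told apart.

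**Figure D1:**
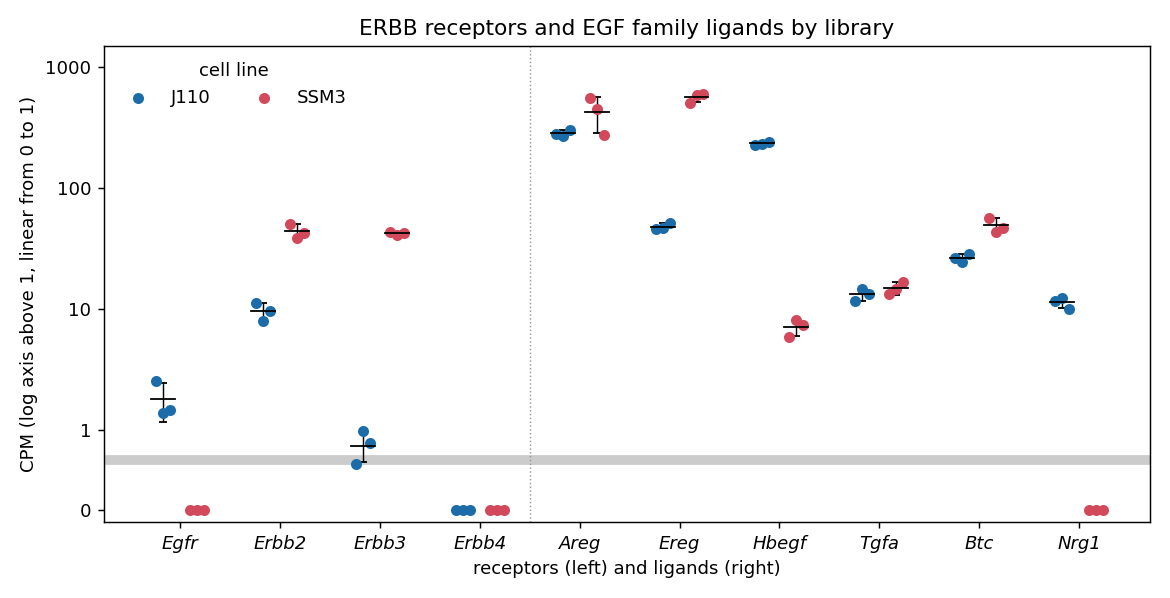
CPM of the 10 members in the 6 libraries (y axis logarithmic above 1 and linear from 0 to 1), with a point for each library, a bar for the mean of 3 replicates and an error bar for the SD. The grey band marks the CPM of 3 counts, and Egfr and Nrg1 lie at 0 in SSM3, Erbb3 lies near the band in J110, and the libraries of the lines overlap for Areg and Tgfa.

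Of the receptors, Egfr was detected in J110 only at a low level, and Erbb2 and Erbb3 were higher in SSM3. Egfr (ENSMUSG00000020122, mm10 chromosome 11 from 16752203 to 16918158, plus strand), the receptor that gave the family its name, had 13, 7 and 7 counts in J110 and 0, 0 and 0 in SSM3. Every J110 library held reads and no SSM3 library did. The J110 mean of 1.78 ± 0.627 CPM (SD, n = 3) was at least 2.81-fold above the level that 3 counts in each library would give in SSM3, and no test is given. Erbb4 (ENSMUSG00000062209, chromosome 1 from 68032186 to 69108059, minus strand), the receptor of neuregulins with a kinase of its own, had 0 counts in all 6 libraries, which allows up to 0.578 to 0.668 CPM.

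Erbb2 (ENSMUSG00000062312, chromosome 11 from 98412470 to 98437716, plus strand), the partner receptor without a ligand, had 58, 40 and 46 counts in J110 and 227, 182 and 213 in SSM3. All SSM3 libraries lay above all J110 libraries. The means were 9.56 ± 1.64 CPM and 43.9 ± 6.09 CPM (SD, n = 3 each), and the log2 fold change was 2.19 ± 0.16 (SE, edgeR adjusted p = 2.36e-09). The last exon of Erbb2 shares 9 bases with that of Mien1 on the opposite strand, and reads there cannot be assigned to either gene without the strand. Summing the counts of Erbb2 and Mien1 gave a log2 fold change of 1.97.

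Erbb3 (ENSMUSG00000018166, chromosome 10 from 128567523 to 128589652, minus strand), the PI3K-recruiting partner, had 3, 5 and 4 counts in J110 and 196, 194 and 212 in SSM3. The J110 libraries were close to the detection floor and the SSM3 libraries were far above it. The means were 0.801 ± 0.207 CPM and 42.3 ± 1.23 CPM (SD, n = 3 each), a 52.9-fold difference with a 95% counting interval of 30.1 to 103, and the fitted log2 fold change was 5.68 ± 0.22 (SE). At the share of SSM3 counts seen on other genes, the J110 libraries would have held 0.0697, 0.0641 and 0.507 counts of Erbb3. Those genes were chosen for few counts in J110, so the share decides nothing about the 3, 5 and 4 observed. The source of these reads was not tested.

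The 250 bases before the RefSeq start of Egfr and Erbb2 (GRCm38.p6, the mm10 assembly) are shown because these receptors lie on the same chromosome. Erbb2 was called higher in SSM3, whereas Egfr, which was not tested, had reads in J110 only. They span chr11:16751953-16752202 and chr11:98412234-98412483, both on the plus strand and written 5′ to 3′, with matches to the GC box GGGCGG on either strand in capitals.
Egfr: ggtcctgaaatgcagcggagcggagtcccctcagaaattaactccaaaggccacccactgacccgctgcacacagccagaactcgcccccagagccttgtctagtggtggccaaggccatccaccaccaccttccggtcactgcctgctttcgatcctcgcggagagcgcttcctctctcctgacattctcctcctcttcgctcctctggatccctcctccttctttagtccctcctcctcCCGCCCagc
Erbb2: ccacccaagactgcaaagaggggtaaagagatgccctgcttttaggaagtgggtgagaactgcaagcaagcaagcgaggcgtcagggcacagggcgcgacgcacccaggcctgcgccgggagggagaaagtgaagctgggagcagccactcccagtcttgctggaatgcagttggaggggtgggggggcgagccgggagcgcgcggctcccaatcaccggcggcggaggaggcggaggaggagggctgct
The Egfr window held 1 GC box, on the minus strand, which began 9 bases before the start, and its GC content was 60.8%. The Erbb2 window held none at a GC content of 66.0%, and neither window held TATAAA, the cyclic AMP response element TGACGTCA or the AP-1 site TGANTCA. Of 32851 promoter windows of this length, 32.7% held GGGCGG, 12.4% TATAAA, 1.55% TGACGTCA and 6.75% TGANTCA on either strand, and the median GC content was 52.4%. The RefSeq table held a promoter for 6 of the 10 members, and Erbb3 was among those without.

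**Figure D2:**
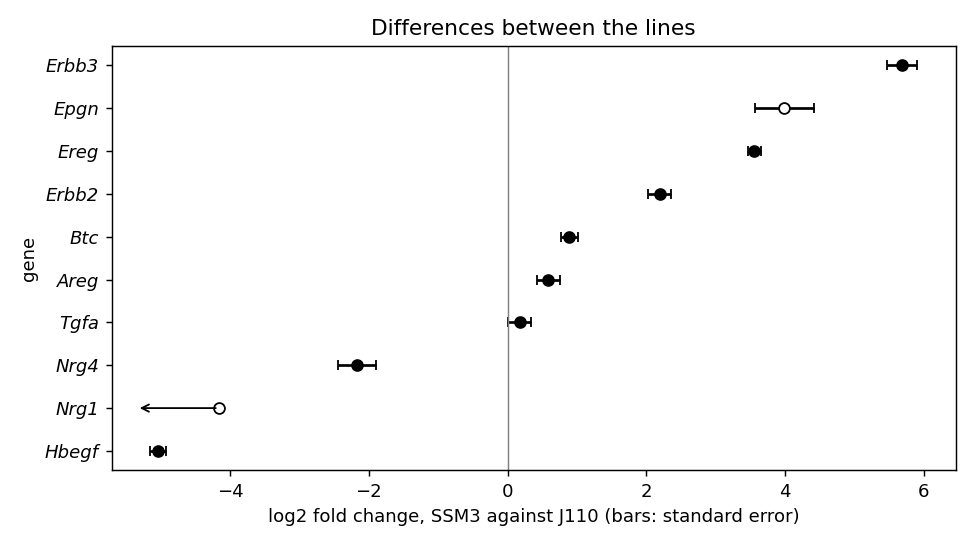
Log2 fold change, SSM3 against J110, of the members and the other EGF family ligands that passed the filter (x axis, log2 scale), with error bars for the standard error. Open circles mark Epgn, which had at most 3 counts in every J110 library, and Nrg1, drawn as a bound with an arrow because SSM3 had no count, and the ligands lie on both sides of 0 while Erbb2 and Erbb3 lie above it.

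The 6 ligands moved in different directions. Ereg, Btc and Areg were called higher in SSM3, Hbegf and Nrg1 lower, and Tgfa was not called. Ereg (ENSMUSG00000029377, chromosome 5 from 91074622 to 91093646, plus strand), epiregulin, had 236, 236 and 246 counts in J110 and 2275, 2759 and 3009 in SSM3. Each SSM3 library held more than each J110 library by a wide margin. The means were 47.8 ± 3.09 CPM and 564 ± 49.9 CPM (SD, n = 3 each), and the log2 fold change was 3.56 ± 0.091 (SE, edgeR adjusted p = 3.34e-15). Ereg shares 141 exon bases with Gm19610, which had 0 counts in J110 and 4, 4 and 3 in SSM3.

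Areg (ENSMUSG00000029378, chromosome 5 from 91139599 to 91148432, plus strand), amphiregulin, had 1454, 1357 and 1452 counts in J110 and 2501, 2111 and 1390 in SSM3. The J110 libraries lay close together, the SSM3 libraries were spread, and SSM3 replicate 3 fell within the range of J110 in CPM. The means were 284 ± 17.6 CPM and 427 ± 141 CPM (SD, n = 3 each), and the log2 fold change was 0.59 ± 0.16 (SE, edgeR adjusted p = 0.00363, 95% interval 0.24 to 0.93). DESeq2 gave an adjusted p of 0.0586, and leaving out SSM3 replicate 1 reduced the log2 fold change to 0.36 with an edgeR adjusted p of 0.0246. Without J110 replicate 3 and SSM3 replicate 2 together the edgeR adjusted p was 0.0515, and over all alternatives, the test against a 2-fold threshold included, adjusted p ranged from 2.76e-14 to 1.

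Btc (ENSMUSG00000082361, chromosome 5 from 91357261 to 91402994, minus strand), betacellulin, had 136, 124 and 137 counts in J110 and 255, 205 and 235 in SSM3. The lines did not overlap. The means were 26.4 ± 2.04 CPM and 49.0 ± 6.91 CPM (SD, n = 3 each), and the log2 fold change was 0.89 ± 0.12 (SE, edgeR adjusted p = 6.31e-06).

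Hbegf (ENSMUSG00000024486, chromosome 18 from 36504927 to 36515805, minus strand), the heparin-binding ligand, showed the reverse pattern, with 1177, 1173 and 1161 counts in J110 and 26, 38 and 37 in SSM3. The J110 libraries were nearly alike and all far above the SSM3 libraries. The means were 234 ± 7.83 CPM and 7.07 ± 1.17 CPM (SD, n = 3 each), and the log2 fold change was -5.04 ± 0.12 (SE, edgeR adjusted p = 1.13e-15). At the share of J110 counts seen on other genes, the SSM3 libraries would have held 0.881, 3.999 and 0.734 counts of Hbegf. Those genes were chosen for few counts in SSM3, so the share decides nothing about the Hbegf reads observed, whose source was not tested.

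Nrg1 (ENSMUSG00000062991, chromosome 8 from 31814551 to 32884029, minus strand), the neuregulin that binds ERBB3 and ERBB4, had 60, 62 and 48 counts in J110 and 0, 0 and 0 in SSM3. Reads were therefore present in every J110 library and in no SSM3 library, the opposite of the order seen for its receptor Erbb3. The J110 mean of 11.3 ± 1.15 CPM (SD, n = 3) was at least 17.8-fold above the level of 3 counts in each SSM3 library. Nrg1 shares 482 exon bases with Gm26578, which had at most 1 count in any library.

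Tgfa (ENSMUSG00000029999, chromosome 6 from 86195223 to 86275719, plus strand), transforming growth factor alpha, had 60, 74 and 64 counts in J110 and 59, 69 and 84 in SSM3, and the lines overlapped. The means were 13.2 ± 1.54 CPM and 14.8 ± 1.80 CPM (SD, n = 3 each), and the log2 fold change was 0.17 ± 0.17 (SE, edgeR adjusted p = 0.358). The 95% interval of the log2 difference was -0.19 to 0.54, and the log2 fold change was 0.35 with library size only, 0.074 without J110 replicate 1 and 0.080 without SSM3 replicate 3. Gm43917, which shares 118 exon bases with Tgfa, had at most 1 count in any library.

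The spread between replicates differed among the members. The coefficient of variation of CPM was 6.19% in J110 and 33.1% in SSM3 for Areg, the widest spread of any member with counts in SSM3, and 3.35% and 16.5% for Hbegf. For Ereg it was 6.45% and 8.85%, for Btc 7.72% and 14.1%, for Tgfa 11.7% and 12.1%, and for Erbb2 17.1% and 13.9%. Erbb3 varied by 25.9% in J110, where counts were lowest, and by 2.91% in SSM3.

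The other 5 genes of the ligand family were read beside these. Nrg4, a neuregulin of ERBB4, had 113, 124 and 104 counts in J110 and 9, 21 and 42 in SSM3, a log2 fold change of -2.17 ± 0.28 (SE, edgeR adjusted p = 2.10e-06), and -2.79 without SSM3 replicate 3. Epgn, epigen, had 3, 3 and 1 counts in J110 and 27, 32 and 52 in SSM3, a 16.8-fold difference with a 95% counting interval of 7.87 to 42.7. Both were separated between the lines, Nrg4 higher in J110 and Epgn higher in SSM3. Egf itself had 7, 10 and 8 counts in J110 and 2, 2 and 2 in SSM3 and did not pass the filter, Nrg2 had 1 count in 1 J110 library, and Nrg3 had none.

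Epgn, Ereg, Areg and Btc are neighbours on chromosome 5, and all 4 were called higher in SSM3, Epgn after passing the filter through SSM3 only and Areg with edgeR but not with DESeq2. Relative to the start of Areg, the start of Epgn lay at -112.1 kb, that of Ereg at -65.0 kb and that of Btc at 263.4 kb. The log2 fold changes of the neighbours were 3.99 for Epgn, 3.56 for Ereg, 0.59 for Areg and 0.89 for Btc. Of 14 protein-coding genes that start within 500 kb of Areg, a window chosen after the values were seen, 11 passed the filter, 6 were called higher and 4 lower in SSM3, and Mthfd2l, between the chemokine genes and Epgn, was not called (log2 fold change 0.019). Over all genes tested 38.6% were higher and 39.2% lower. Of the 11, 5 (Epgn, Cxcl1, Cxcl15, Pf4 and Ppbp) reached the filter's level in all libraries of 1 line only, and of the remaining 6, 4 were higher and 1 was lower. Cxcl1 had 72, 98 and 95 counts in J110 and 21, 23 and 9 in SSM3. Cxcl15, with 0 counts in J110 and 1452, 1376 and 1540 in SSM3, and Rassf6 (log2 fold change 1.05) were also higher. Ppbp and Pf4, with no count in SSM3, Cxcl1 (-2.23) and, beyond Btc, Parm1 (-2.81) were lower, so the direction of the 4 ligands did not extend to all their neighbours.

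**Figure D3:**
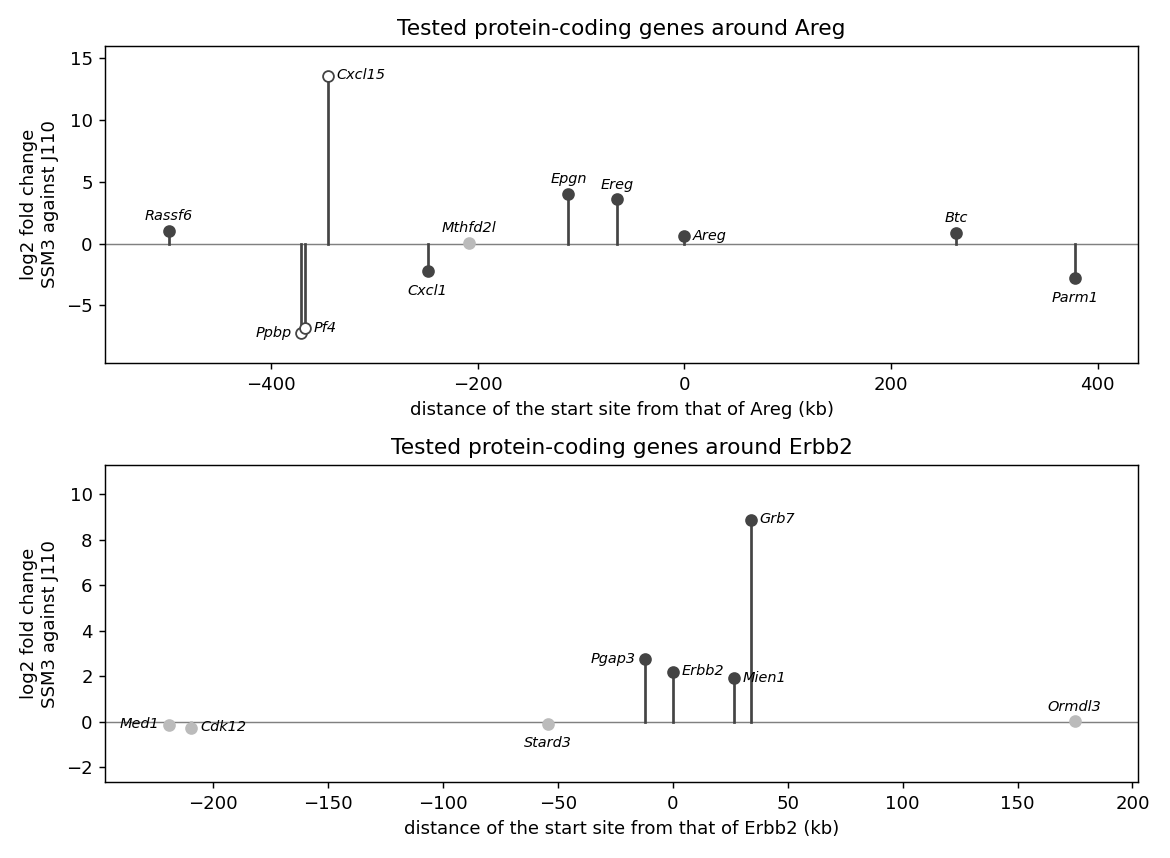
Log2 fold change, SSM3 against J110 (y axis), of tested protein-coding genes by distance of their start from that of Areg (upper panel) and of Erbb2 (lower panel) in kb (x axis), with a line from 0 to each point. Dark points passed an adjusted p of 0.05, light points did not, and open points had no count in 1 line, and the 4 ligands and the genes from Pgap3 to Grb7 lie above 0 beside neighbours at or below it.

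Of these 4 ligand genes, the RefSeq table held the promoters of Areg and Btc, which are shown because both genes were called higher in SSM3 although they lie on opposite strands. They span chr5:91139349-91139598 on the plus strand and chr5:91402995-91403244 on the minus strand (GRCm38.p6), written 5′ to 3′ in the direction of the gene, with matches to any of the 4 motifs in capitals.
Areg: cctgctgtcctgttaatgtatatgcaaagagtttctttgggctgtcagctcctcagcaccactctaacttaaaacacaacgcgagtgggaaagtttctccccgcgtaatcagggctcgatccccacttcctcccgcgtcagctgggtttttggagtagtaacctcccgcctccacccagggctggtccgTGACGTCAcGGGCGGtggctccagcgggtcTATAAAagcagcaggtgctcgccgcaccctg
Btc: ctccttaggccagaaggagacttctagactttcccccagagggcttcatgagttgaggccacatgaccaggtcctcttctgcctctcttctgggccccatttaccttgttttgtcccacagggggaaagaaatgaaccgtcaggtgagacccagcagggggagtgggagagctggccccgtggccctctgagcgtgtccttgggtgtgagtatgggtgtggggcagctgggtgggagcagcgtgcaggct
The Areg window held, in this order, the element TGACGTCA that began 61 bases before the start, GGGCGG at 52 bases and TATAAA at 31 bases, with no overlap between them, and its GC content was 57.2%. The Btc window held none of the 4 motifs at a GC content of 59.6%. TGACGTCA is the least common of the 4, found in 1.55% of all windows. These matches are descriptions of the letters only, and no binding was measured.

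The genes that flank Erbb2 in the mouse were described because this region is often amplified as a block in human breast cancer. Of 14 listed neighbours, 8 passed the filter, 4 were called higher in SSM3, none lower, and 4 were not called, so that 50% were called where the share over all genes was 77.9%. Without Pgap3 and Grb7, which reached the filter's level in SSM3 only, 2 of 6 were higher. Pgap3, at -12.0 kb, had 10, 7 and 4 counts in J110 and 42, 45 and 47 in SSM3 (log2 fold change 2.73 ± 0.30 SE). Mien1, at 26.5 kb, had 183, 171 and 178 counts in J110 and 614, 618 and 643 in SSM3 (log2 fold change 1.90 ± 0.088 SE). Grb7, at 33.9 kb, which encodes an adaptor that binds ERBB2, had 0, 0 and 3 counts in J110 and 452, 519 and 539 in SSM3. Pgap3, Mien1 and Grb7 were thus higher in SSM3, and for Grb7 the ratio of mean CPM was 508 with a 95% counting interval of 182 to 2583. All 3 of its J110 counts were in replicate 3, which at its share of stray counts would have held 1.27. Without that library Grb7 had no count in J110 and the fitted log2 fold change, which then depends on the prior count, was 12.02 in place of 8.88.

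Psmd3, a proteasome subunit gene, was the other neighbour called higher, with a log2 fold change of 1.34 ± 0.075 (SE). Stard3, at -54.1 kb, had a log2 fold change of -0.10 ± 0.16 (SE), Cdk12 of -0.27 ± 0.19 (SE), Med1 of -0.14 ± 0.074 (SE) and Ormdl3 of 0.0016 ± 0.14 (SE), none past the threshold. With library size only, the values of Stard3 and Med1 turned positive (0.072 and 0.034). Leaving out J110 replicate 2 gave Cdk12 an edgeR adjusted p of 0.0459, and upper-quartile scaling gave Med1 0.0429. Pnmt, Ikzf3 and Zpbp2 had no count, and Neurod2, Ppp1r1b and Tcap had at most 3 counts in any library.

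Erbb2 and Mien1 were also set against each other within each library, where library size cancels. The log2 ratio of Erbb2 to Mien1 counts was -1.65, -2.08 and -1.94 in J110 and -1.43, -1.76 and -1.59 in SSM3, and the lines overlapped. The difference of 0.30 between means gave p = 0.2 in an exact two-sided permutation test, where the smallest p that 3 libraries against 3 allow is 0.1.

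The balance of receptors and ligands within a library was described in the same way, as log2 ratios of counts with 0.5 added to each. The ratio of Erbb2 to Egfr counts was 2.39 ± 0.26 in J110 and 8.69 ± 0.16 in SSM3 (SD, n = 3 each). That of Erbb3 to Egfr was -1.04 ± 0.80 and 8.65 ± 0.070. SSM3 libraries held no read on Egfr, so the size of both ratios in SSM3 depends on the added count and no test is given. The ratio of Areg to Hbegf counts was 0.28 ± 0.060 in J110 and 5.85 ± 0.68 in SSM3 (SD, n = 3 each, exact permutation p = 0.1), and all 3 values for SSM3, 6.56, 5.78 and 5.21, lay above those for J110. The 3′ counts are not scaled by length and the ratios are compared between lines, not read as relative amounts of the genes.

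All 10 genes of the list for ligand release passed the filter, and 5 were called higher and 5 lower in SSM3. Over all genes tested 38.6% were higher and 39.2% lower, and the list is split as evenly. Without Adam9, Adam12 and Adam19, which reached the filter's level in all libraries of J110 only, 5 were higher and 2 lower. The median log2 fold change was -0.16. Adam17, the main protease for AREG, EREG, HBEGF and TGFA, had 323, 295 and 319 counts in J110 and 377, 418 and 524 in SSM3, a log2 fold change of 0.57 ± 0.099 (SE, edgeR adjusted p = 6.35e-05). Adam10, the protease for BTC and EGF, had 1.32 ± 0.092 (SE), and Frmd8, which stabilises the ADAM17 sheddase complex, had 0.37 ± 0.084 (SE). Both of these main proteases of the ligands were thus called higher in SSM3. Adam19, a protease that cleaves neuregulin, had 350, 271 and 303 counts in J110 and 0, 1 and 0 in SSM3, and Adam12, a protease for HBEGF, had 455, 411 and 358 counts and 2, 1 and 0. In both genes every SSM3 library lay at or under the floor, with J110 to SSM3 ratios of 868 (95% counting interval 157 to 34567) and 371 (132 to 1874). The single Adam19 read in SSM3 was in replicate 2, and without that library SSM3 had none and the fitted log2 fold change was -11.23 in place of -9.32. For Adam12 it was -9.31 without SSM3 replicate 1 in place of -8.42. Rhbdf2 was called lower, but without J110 replicate 3 its edgeR adjusted p was 0.0635, which leaves 4 genes lower.

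Of 16 adaptor and effector genes downstream of the receptors, 15 passed the filter, 6 were called higher and 7 lower in SSM3 (86.7% called, beside 77.9% over all genes), with a median log2 fold change of -0.032. Without Grb7, which reached the filter's level in SSM3 only, 5 were higher and 7 lower. Grb2, which links the receptors to RAS, had a log2 fold change of 0.65 ± 0.082 (SE), and Shc1, another link to RAS, of -0.91 ± 0.083 (SE). Pik3ca, the catalytic subunit of PI3K, had -0.62 ± 0.090 (SE). Gab1, a docking protein for PI3K, had 19, 14 and 11 counts in J110 and 111, 93 and 100 in SSM3, a log2 fold change of 2.86 ± 0.22 (SE), and with Grb7 it had the largest change of the list. The list therefore held changes in both directions, around a median near that of all genes.

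Of 11 listed negative regulators of the receptors, 10 passed the filter, and 8 were called lower and 1 higher, where 39.2% of all genes tested were lower, and the median log2 fold change was -1.41 beside -0.014 over all genes. Without Sh3kbp1 and Cblc, which reached the filter's level in 1 line only, 7 of 8 were lower and none higher, where 36.8% of all such genes were lower. Errfi1, the feedback inhibitor of ERBB kinases, had 444, 523 and 416 counts in J110 and 176, 167 and 165 in SSM3, a log2 fold change of -1.36 ± 0.11 (SE, edgeR adjusted p = 4.79e-09). Cbl, a ubiquitin ligase for EGFR, had -1.42 ± 0.15 (SE), and Ptpn12, a tyrosine phosphatase, -1.39 ± 0.12 (SE). Sh3kbp1, which joins CBL to endocytosis, had 233, 242 and 241 counts in J110 and 3, 2 and 2 in SSM3. Reads on this gene were at the floor in every SSM3 library, and the J110 to SSM3 ratio was 96.0 with a 95% counting interval of 46.7 to 242.

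Cblc, the CBL family member of epithelia, was the exception, with 1, 0 and 0 counts in J110 and 171, 196 and 232 in SSM3, a ratio of 653 (95% counting interval 113 to 25047). It rests on 1 read in J110 replicate 1, and without that library J110 had none and the fitted log2 fold change was 10.66 in place of 8.83. Rnf41, the ubiquitin ligase that lowers ERBB3, had 45, 47 and 42 counts in J110 and 21, 40 and 34 in SSM3, a log2 fold change of -0.42 ± 0.23 (SE, edgeR adjusted p = 0.114). Its lines did not overlap in CPM, and without SSM3 replicate 2 the edgeR adjusted p was 0.0399.

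**Figure D4:**
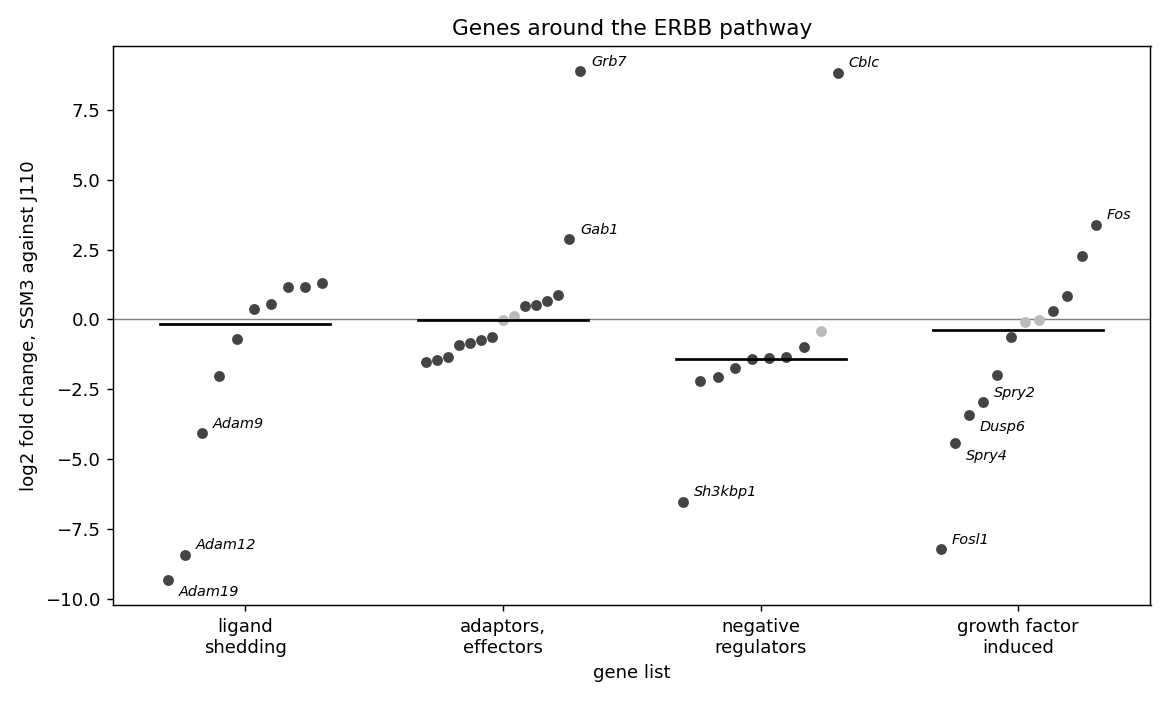
Log2 fold change, SSM3 against J110 (y axis), of the tested genes in the lists for ligand shedding, adaptors and effectors, negative regulators and growth factor induced genes (x axis), with a point for each gene and a bar for the median. Dark points passed an adjusted p of 0.05 and light points did not, and the negative regulators have the lowest median (-1.41), with Cblc standing alone above 0.

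Of 12 genes induced by growth factors, all passed the filter, 4 were called higher and 6 lower in SSM3 (83.3% called, beside 77.9% over all genes), with a median log2 fold change of -0.37. Without Fosl1 and Spry4, which reached the filter's level in J110 only, 4 were higher and 4 lower. Dusp6, a phosphatase of ERK that ERK signalling induces, had 1187, 1247 and 974 counts in J110 and 110, 108 and 83 in SSM3, a log2 fold change of -3.41 ± 0.12 (SE, edgeR adjusted p = 2.83e-13). Fosl1, an AP-1 subunit, had 607, 612 and 491 counts in J110 and 0, 5 and 0 in SSM3. All 5 SSM3 reads were in replicate 2, which at its share of stray counts would have held 1.94, and the source of these reads was not tested. Spry4, a feedback inhibitor of receptor signalling, had 19, 23 and 12 counts in J110 and 0, 2 and 0 in SSM3, a ratio of 25.2 (95% counting interval 6.74 to 216). Both SSM3 reads of Spry4 were in replicate 2, and without it SSM3 had none and the fitted log2 fold change was -7.15 in place of -4.44. That of Fosl1 was -12.12 in place of -8.23, and -7.64 without SSM3 replicate 3. These 3 were all lower in SSM3. Fos, another AP-1 subunit, was higher, with 24, 24 and 22 counts in J110 and 264, 204 and 225 in SSM3 (log2 fold change 3.39 ± 0.18 SE). Ier3, an immediate early gene, was also higher, with 738, 600 and 698 counts in J110 and 2672, 3149 and 3570 in SSM3 (log2 fold change 2.28 ± 0.091 SE), and Phlda1 was not called (log2 fold change -0.086 ± 0.080 SE). Dusp4 was called higher with a log2 fold change of 0.29, but DESeq2 gave an adjusted p of 0.0662, and edgeR gave 0.0898 without J110 replicate 1, 0.0535 without J110 replicate 2 and 0.0505 without SSM3 replicate 3.

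The genes whose pattern was nearest to each receptor were found by the Euclidean distance of centred log2 CPM over the 6 libraries. Nearest to Erbb2 was Acap1 (distance 0.25), with 13, 8 and 12 counts in J110 and 57, 51 and 55 in SSM3, followed by Gm42420 (distance 0.26). Nearest to Erbb3 was Tfcp2l1 (distance 0.21), with 1, 3 and 2 counts in J110 and 125, 139 and 143 in SSM3, followed by Tspan13 (distance 0.31), with 13, 16 and 13 counts and 519, 427 and 551. The likeness rests on 6 libraries of 2 lines.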

How the data were processed

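Per the labels and the methods, 3′ mRNA libraries were made with the QuantSeq kit, and the authors demultiplexed reads with bcl2fastq 2.17.1.14, trimmed them with cutadapt 2.1, mapped them to mm10 with HISAT2 2.0.4 and counted them with featureCounts of Subread 2.0.0. The deposited values are raw counts for 52636 genes, with no normalisation. The strand setting, the handling of reads over several genes and the annotation release are not given in the sources used here. Groups came from the labels, and all 6 libraries were used. Some details of the lines and some marker results are not reported here.

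Symbols and positions came from the GENCODE annotation of GRCm38 (52403 genes, 99.6%, had a symbol). Low counts were removed with filterByExpr, libraries were scaled with TMM (factors 0.920 to 0.958 in J110 and 1.05 to 1.07 in SSM3) and genes were tested with edgeR 4.0.16 (quasi-likelihood, R 4.3.3, limma 3.58.1), with a threshold of 0.05 on p adjusted over all genes tested. Scaling by library size alone shifted the median log2 fold change from -0.014 to 0.16. The standard error is the size of the log2 fold change over the square root of F. The floor was 3 counts in each library. Where a line had no count, the fold is a bound against 3 counts in each library, and counting intervals are exact and cover counting error only. At a ribosomal RNA locus, 15.1% to 17.2% of J110 counts and 0.779% to 1.27% of SSM3 counts were found.

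Replicates differed by more than sampling noise (chi-square per degree of freedom 2.29 to 6.01). The members and lists were chosen with earlier results of these data known. The members, the other EGF family ligands, the genes beside Erbb2 and the genes that share exons with a member were named, with the 3 genes of highest mean log2 CPM and the 2 of largest log2 fold change in each pathway list and the 2 nearest to each tested receptor. Rhbdf2, Rnf41, Dusp4, Fos, the neighbours of Areg and the markers were named after their values were seen. Alternatives were DESeq2 1.42.0, limma-voom, other scalings, filters and thresholds, a replicate block and leaving out libraries. Promoters came from RefSeq.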

Additional observations from a re-analysis of the deposited data

How the results depend on the processing

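Of 135 recomputed log2 fold changes of the 8 tested members, 131 kept their direction and their side of the threshold and none reversed. A further 40 recomputed values, of ratios and of Egfr, have no threshold in the main result, and 37 of them stayed within the spread between replicates and kept their sign. The exceptions follow, and their cause was not tested unless stated. Areg was no longer past the threshold with DESeq2 (log2 fold change 0.58, adjusted p = 0.0586), with edgeR's test against a 2-fold threshold (0.59), or without J110 replicate 3 and SSM3 replicate 2 together (0.60), the last with fewer samples. Btc (0.89) also lost its call against the 2-fold threshold, which left 3 members higher in SSM3, and 2094 genes higher and 2178 lower over all genes. With at least 10 counts in every library, 6 members were tested, 4 were higher and 1 was lower, since Erbb3 and Nrg1 drop out. With at least 1 count in any library, Egfr was tested and called lower (fitted log2 fold change -6.14, adjusted p = 1.14e-06), a value that depends on the prior count. A prior count of 2 reduced the difference in log2 ratio to 4.49 for Erbb2 to Egfr and to 7.51 for Erbb3 to Egfr, since Egfr is at 0 in SSM3.

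Same-numbered libraries of the lines did not deviate together (correlations across genes 0.012, 0.015 and 0.027), so the numbers were not taken as pairs. With the replicate number as a block, 9481 genes were called in place of 9566, and no member changed its call. The counts of the pathway lists and of the genes beside Erbb2 were also taken without J110 replicate 3 and SSM3 replicate 2 together and with library size only. This recount of the lists was added after seeing the data. The counts differed only for ligand shedding, with 4 lower in place of 5 without those libraries.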
